A study of Homo sapiens with 12 samples.

Results

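The 10 genes described here encode the enzymes of the urea cycle and the enzymes that make and use its arginine, ornithine and glutamine. They were chosen by symbol, as CPS1, OTC, ASS1, ASL, ARG1, ARG2, NAGS, OAT, GLUL and ODC1, and each matched 1 Ensembl identifier among the 57500 genes counted. RNA was sequenced from HepG2 cells, a human hepatocellular carcinoma line, in 3 groups of 4 libraries. WT libraries came from wild-type cells, shTST libraries from cells in which thiosulfate sulfurtransferase (TST), a mitochondrial enzyme that converts cyanide to thiocyanate, was silenced with a short hairpin RNA, and overTST libraries from cells that overexpressed TST. Cells of every group were kept for 24 h in normal medium with 400 µM glycine, and the question was how the amount of TST relates to the transcriptome. Both engineered lines were made with lentivirus and selected with blasticidin, the overexpression vector carried a codon-optimised TST coding sequence under a CMV promoter, and the controls were wild-type cells rather than cells carrying an empty vector. Effects of transduction and selection therefore cannot be told apart from effects of TST in the comparisons with WT. Whether either line was 1 clone was not given in the sources used here.

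The urea cycle turns ammonia, which is toxic, into urea. In mitochondria NAGS makes N-acetylglutamate, the activator that CPS1 needs to build carbamoyl phosphate from ammonia and bicarbonate, and OTC joins carbamoyl phosphate to ornithine. In the cytosol ASS1 and ASL convert the resulting citrulline to arginine, and ARG1 splits arginine into urea and ornithine. ARG2 is the mitochondrial arginase, OAT links ornithine to glutamate and proline, ODC1 turns ornithine into putrescine, the first polyamine, and GLUL, glutamine synthetase, binds ammonia as glutamine. Hepatocytes are the main site of the full cycle in the body, and HepG2 cells are known to carry little OTC and ARG1.

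In the annotation of the count files, on GRCh38, CPS1 lay at chr2:210477682-210679107, OTC at chrX:38352545-38421450 and NAGS at chr17:44004546-44009063. ASS1 lay at chr9:130444929-130501274, ASL at chr7:66075798-66093558 and ARG1 at chr6:131573144-131584332. ARG2 lay at chr14:67619798-67651720, all of these on the plus strand. OAT at chr10:124397303-124418976, GLUL at chr1:182381704-182392206 and ODC1 at chr2:10439968-10448504 lay on the minus strand. All 10 are protein-coding, and counts covered all annotated exons, untranslated parts included.

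The sequences before the first counted base of CPS1, ASS1 and ARG2, the members that differed between groups, are shown with that of ARG1, the other arginase. They are the parts of RefSeq promoter windows (GRCh38.p14, plus strand, each window running from 250 bases before a start to 50 after it) that precede the gene in the count files. They cover chr2:210477435-210477681 for CPS1, chr9:130444711-130444928 for ASS1, chr14:67619670-67619797 for ARG2 and chr6:131572976-131573143 for ARG1. Capitals mark matches, on either strand, to a cyclic AMP response element (TGACGTCA), a GC box (GGGCGG, or CCGCCC on the other strand), a CCAAT box (CCAAT or ATTGG), an E-box (CACGTG) or a TATA box (TATAAA or TTTATA), and none of the capitalised runs overlap.
CPS1: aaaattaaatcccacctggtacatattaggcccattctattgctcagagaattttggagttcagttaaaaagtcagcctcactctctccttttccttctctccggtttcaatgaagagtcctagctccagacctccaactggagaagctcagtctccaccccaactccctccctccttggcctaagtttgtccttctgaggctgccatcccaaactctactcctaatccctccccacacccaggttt
ASS1: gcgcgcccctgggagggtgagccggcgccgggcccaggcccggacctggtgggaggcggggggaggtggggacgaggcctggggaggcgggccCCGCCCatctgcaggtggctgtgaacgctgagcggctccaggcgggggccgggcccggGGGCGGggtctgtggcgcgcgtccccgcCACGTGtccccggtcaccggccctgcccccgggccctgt
ARG2: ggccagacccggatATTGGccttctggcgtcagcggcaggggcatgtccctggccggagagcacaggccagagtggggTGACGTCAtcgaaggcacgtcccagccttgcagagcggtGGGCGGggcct
ARG1: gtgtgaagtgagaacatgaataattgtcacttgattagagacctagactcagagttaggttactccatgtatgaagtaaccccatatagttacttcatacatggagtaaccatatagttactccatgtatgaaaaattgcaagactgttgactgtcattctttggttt

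The sequence before ARG2 held a CCAAT box at its base 15, a cyclic AMP response element at base 79 and a GC box at base 118, counted from 1 at the 5′ end. That before ASS1 held 2 GC boxes and, at base 180, an E-box, while the parts shown for CPS1 and ARG1 held none of the 5 motifs. The full ARG1 window, which runs on past the part shown, held a TATA box. Another CPS1 window, at chr2:210519468-210519767, held a CCAAT box and an E-box. The shares that follow are of full windows, which are longer than the parts shown. Among the 35116 windows of the RefSeq table, 1.85% held the cyclic AMP response element, 45.0% a GC box, 34.6% a CCAAT box, 7.26% an E-box and 11.5% a TATA box. Of the 15 full windows of the 10 members, 1 held the cyclic AMP response element, 10 a GC box, 5 a CCAAT box, 3 an E-box and 2 a TATA box. The matches describe letters in these windows and no binding was measured.

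Libraries held 28866175 to 45120508 counted reads in WT, 27527854 to 33865386 in shTST and 22911380 to 27414142 in overTST, so every overTST library was shallower than every WT library. The share of reads on genes of the mitochondrial genome was 6.91% to 11.98% in WT, 6.84% to 8.66% in shTST and 10.8% to 11.7% in overTST, so the engineered lines did not overlap. WT replicate 4, with the highest share, stood furthest from WT replicates 1 and 3, with chi-square values per gene of 38.9 and 37.1 among the 18 replicate pairs' range of 3.79 to 38.9. Without it the CPS1 call in shTST was lost (edgeR adjusted p = 0.0878), while the other member calls in the 3 comparisons were kept. TST itself reached 49.0 ± 2.59 CPM (counts relative to library sizes scaled by TMM over all 12 libraries) in WT, 34.1 ± 1.62 in shTST and 57.9 ± 4.90 in overTST (SD, n = 4). In edgeR's quasi-likelihood test the log2 fold change of TST was −0.52 (SE 0.055, adjusted p = 3.2e-06) in shTST and 0.24 (SE 0.062, adjusted p = 0.00384) in overTST. The overTST value fell to 0.093 (adjusted p = 0.218) after a correction for gene length, and reads of the codon-optimised transgene need not be counted on the native gene.

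All 13 hepatocyte markers examined, ALB and HNF4A among them, had counts in every library. Their summed levels were 28698 to 32780 CPM in WT, 30595 to 34920 in shTST and 25894 to 31080 in overTST. The sums of both marker lists are relative to plain library totals, without TMM scaling. The 12 markers of blood, endothelial and stromal cells summed to 56.9 to 67.0 CPM in WT, 61.5 to 64.8 in shTST and 61.6 to 71.1 in overTST. Single markers moved in both directions, with 5 hepatocyte markers higher (ALB, with a log2 fold change of 0.39, and FGB, 0.44, among them) and 3 lower (TTR, −0.33, among them) in shTST, and 3 higher and 2 lower in overTST. Of the 6 other markers tested, PECAM1 (0.60) and ACTA2 (0.16) were higher and CDH5 (−1.31, from 14 to 33 reads in WT and 1 to 7 in overTST) lower in overTST by the same edgeR test. The part of depth, mitochondrial share and markers in the results was not tested. In bulk RNA, fewer cells that express a gene and less of its RNA per cell cannot be told apart.

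Expressed per kilobase of exon, ODC1 was the most abundant member and OTC the least in all 3 groups. In WT the mean level was 129 CPM per kb for ODC1, 53.2 for GLUL, 36.0 for ASS1, 21.7 for ASL, 14.7 for OAT, 7.08 for ARG2, 3.76 for CPS1, 1.98 for NAGS, 1.30 for ARG1 and 0.067 for OTC. This order was the same in shTST and overTST, and the 4 libraries of neighbouring genes did not overlap except for NAGS and ARG1 in WT. Divided instead by the longest GENCODE 29 transcript, CPS1 passed ARG2 in shTST, with 7.47 against 6.92 CPM per kb, and the order was otherwise as given. The members thus spanned the range from a polyamine enzyme with 8278 to 17202 reads per library to a urea cycle enzyme with 1 to 8.

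**Figure D1:**
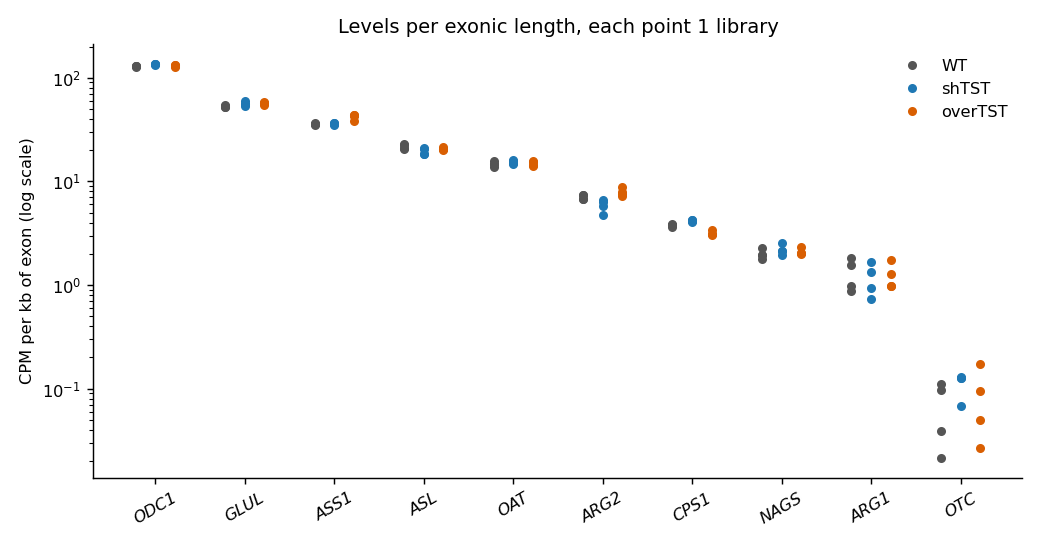
Level of each of the 10 members in CPM per kilobase of exon, on a log axis, for every WT, shTST and overTST library. ODC1 stands highest (WT mean 129) and OTC lowest (WT mean 0.067), and the order of the means is the same in the 3 groups.

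Silencing of TST went with higher CPS1 and lower ARG2, overexpression with lower CPS1 and higher ASS1, and the other 6 members tested passed the threshold in neither comparison with WT. Of these calls, only that of ASS1 in overTST held under every alternative setting and in every fit that left out 1 library. Of the 10 members, 9 passed the filter on low counts and OTC did not. In edgeR's quasi-likelihood test, with p adjusted over all genes tested and a threshold of 0.05, 2 of the 9 were called in shTST versus WT, against 16.1% of the 14584 genes tested. Of these 2, 1 was higher (6.69% of all genes were) and 1 lower (9.40%). In overTST versus WT 2 of the 9 were called, against 33.9% of 14421 genes, 1 of them higher (15.7% of all genes) and 1 lower (18.2%). In the direct comparison of shTST with overTST 3 were called, against 33.0% of 14883 genes, CPS1 being higher in shTST (16.9% of all genes) and ARG2 and ASS1 lower (16.1%). With 9 members tested, 2 is 22.2% and 3 is 33.3%, shares that lie near those of all genes and are not a result about the members. Both comparisons with WT used the same 4 WT libraries, so their values are given side by side and are not independent of each other.

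**Figure D2:**
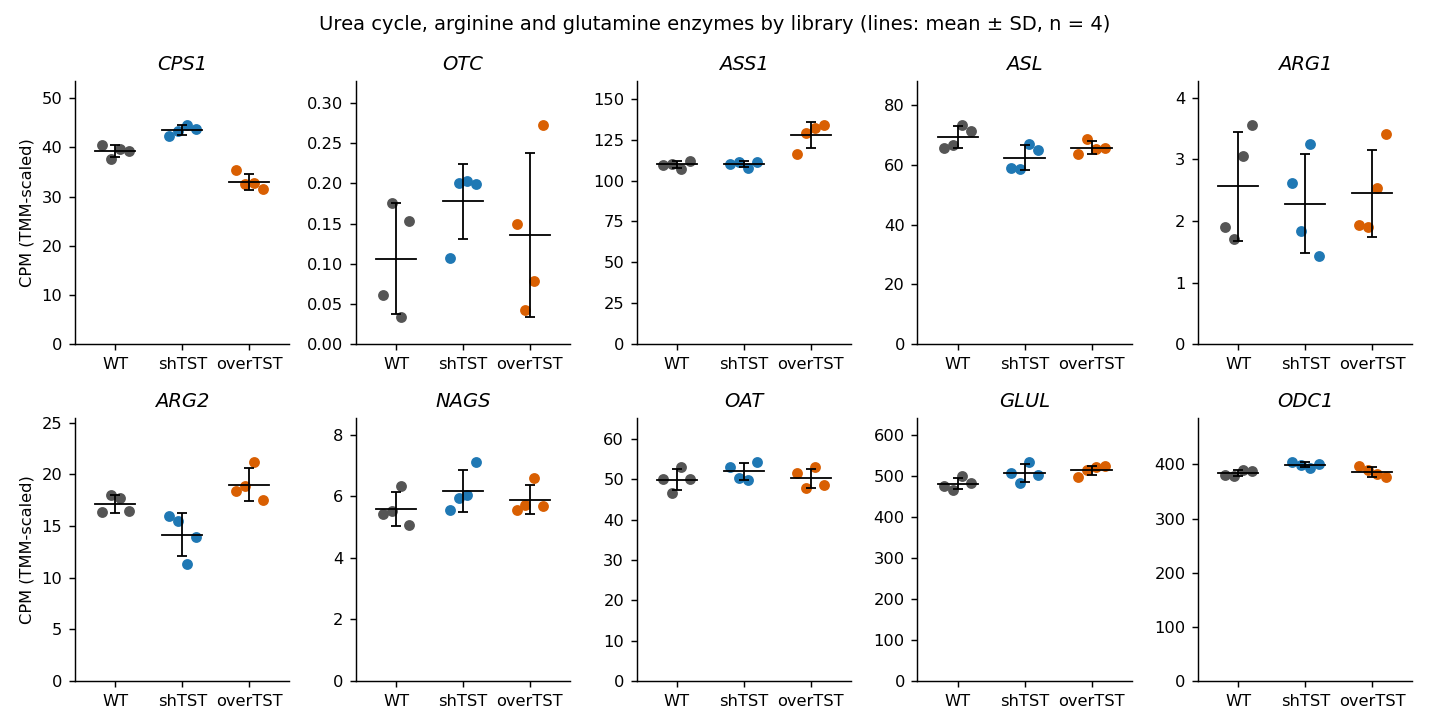
CPM of each member in every library (points), with the mean and SD of the 4 libraries of each group (lines). Every axis starts at 0. CPS1 lies between 42.2 and 44.6 in shTST, 37.6 and 40.5 in WT and 31.5 and 35.3 in overTST, and ASS1 is higher in the 4 overTST libraries than in the other 8.

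CPS1, which makes carbamoyl phosphate at the entry of the cycle, had 40.5, 37.6, 39.6 and 39.2 CPM in WT replicates 1 to 4. In shTST it had 42.2, 43.3, 44.6 and 43.8 CPM, and in overTST 35.3, 32.5, 32.7 and 31.5 CPM. The 3 groups did not overlap, with shTST highest and overTST lowest. Its fitted level rose by 10.9% in shTST (log2 fold change 0.15, SE 0.050, 95% interval 0.046 to 0.25, edgeR adjusted p = 0.0436). The fitted level fell by 15.7% in overTST (log2 fold change −0.25, SE 0.060, interval −0.37 to −0.12, edgeR adjusted p = 0.00244). Between the engineered lines the difference was 0.40 (SE 0.054, interval 0.29 to 0.51, edgeR adjusted p = 6.7e-06), and it kept its call under all 10 alternative settings and in all 12 fits that left out 1 library.

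The call of CPS1 in shTST was close to the threshold. It was lost in 7 of the 8 fits that left out 1 library, all but the one without WT replicate 1, with an edgeR adjusted p of up to 0.105 and log2 fold changes of 0.13 to 0.17. It was also lost with no filter on low counts (edgeR adjusted p = 0.163) and with all 12 libraries in 1 fit (edgeR adjusted p = 0.0527). In overTST versus WT longer genes had lower fold changes: the median was 0.19 for genes with up to 2 kb of exon and −0.16 for those over 8 kb, with a Spearman rho of −0.40 taken over genes and not over replicates. CPS1 has 10444 bases of exon, and after a lowess correction for length its log2 fold change was −0.094 (edgeR adjusted p = 0.236), so the call was lost. In shTST versus WT the trend was smaller, with a rho of −0.090, and in the direct comparison rho was 0.36 and CPS1 kept its call after the correction, at 0.27 (edgeR adjusted p = 0.000504).

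NAGS, whose product activates CPS1, had 5.44, 5.53, 6.35 and 5.06 CPM in WT. It had 5.55, 5.96, 6.06 and 7.14 CPM in shTST and 5.56, 5.72, 6.59 and 5.68 in overTST. The groups overlapped, and the log2 fold changes of 0.15 (SE 0.11, interval −0.076 to 0.37, edgeR adjusted p = 0.385) and 0.077 (SE 0.11, interval −0.15 to 0.31, edgeR adjusted p = 0.634) did not pass the threshold. Counts of 125 to 252 reads per library limited the precision for this gene.

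OTC, the next enzyme, had 2, 8, 1 and 5 reads in WT, 3, 6, 7 and 6 in shTST and 4, 1, 2 and 6 in overTST. The highest level was 0.273 CPM, in overTST replicate 4. Counts this small were filtered out in every comparison, the groups overlapped, and no difference was detectable at this depth. No fold change is given.

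ASS1, which joins citrulline to aspartate, had 109.8, 110.2, 107 and 112 CPM in WT and 110.1, 111, 107 and 111 CPM in shTST. In overTST it had 116, 129, 132 and 134 CPM. The WT and shTST libraries occupied the same narrow range, and all 4 overTST libraries lay above both, replicate 1 least. In overTST the log2 fold change from WT was 0.22 (SE 0.051, interval 0.11 to 0.32, edgeR adjusted p = 0.00182), a rise of 16.4%. In shTST it was 0.0020 (SE 0.041, interval −0.083 to 0.087, edgeR adjusted p = 0.982), an interval that does not reach the value seen in overTST. Directly compared, shTST was lower than overTST (log2 fold change −0.22, SE 0.046, interval −0.31 to −0.12, edgeR adjusted p = 0.000780). The overTST call was kept under all 10 alternative settings and in all 8 fits without 1 library, with log2 fold changes of 0.15 to 0.26. Annotated ASS1 pseudogenes, near copies of the mRNA, summed to 14 to 30 reads per library, at most 0.777% of the ASS1 count, so few reads were assigned to them, and how reads matching several places were counted was not given in the sources used here.

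ASL, which splits argininosuccinate into arginine and fumarate, had 65.7, 66.6, 73.3 and 71.2 CPM in WT. It had 59.0, 58.7, 67.1 and 64.8 CPM in shTST and 63.6, 68.7, 65.3 and 65.5 CPM in overTST. In shTST, 3 of the 4 shTST libraries were below every WT library, and the remaining one, replicate 3, was within the WT range. The log2 fold change in shTST was −0.15 (SE 0.054, interval −0.26 to −0.036) and missed the threshold (edgeR adjusted p = 0.0651). It passed under 4 of 10 alternative settings and in 3 of 8 fits that left out a library, those without WT replicate 1, WT replicate 2 or shTST replicate 3 (lowest edgeR adjusted p of all these, 0.00777). In overTST the log2 fold change of ASL was −0.073 (SE 0.053, interval −0.18 to 0.037, edgeR adjusted p = 0.311), and after the length correction −0.13 (edgeR adjusted p = 0.0469).

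ARG1, the cytosolic arginase that closes the cycle in hepatocytes, was scarce and uneven. It had 1.91, 1.71, 3.06 and 3.56 CPM in WT, 2.61, 1.84, 3.25 and 1.43 CPM in shTST and 1.94, 1.91, 2.53 and 3.41 CPM in overTST. Each group spanned nearly the same range, with 43 to 116 reads per library. The 95% interval of its log2 fold change ran from −0.62 to 0.36 in shTST (edgeR adjusted p = 0.757) and from −0.51 to 0.40 in overTST (edgeR adjusted p = 0.878), so changes of a size seen in the other members were not detectable.

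ARG2, the mitochondrial arginase, had 16.3, 18.0, 17.7 and 16.4 CPM in WT. It had 15.9, 15.4, 11.3 and 13.9 CPM in shTST and 18.4, 18.9, 21.2 and 17.5 CPM in overTST. Every shTST library was below every WT library, with replicate 3 lowest, while overTST and WT overlapped. In shTST the fitted level fell by 17.6% (log2 fold change −0.28, SE 0.087, interval −0.46 to −0.10, edgeR adjusted p = 0.0298). In overTST the log2 fold change was 0.15 (SE 0.076, interval −0.0036 to 0.31, edgeR adjusted p = 0.125), which did not pass. Between shTST and overTST the difference was −0.43 (SE 0.089, interval −0.61 to −0.25, edgeR adjusted p = 0.000536), a call kept in all 10 alternatives and 12 fits without 1 library.

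The shTST call of ARG2 held in 4 of the 8 fits that left out a library. It was lost without WT replicate 2 (edgeR adjusted p = 0.0607), WT replicate 3 (0.0597), shTST replicate 4 (0.0753) or shTST replicate 3, the last with a log2 fold change of −0.18 and an edgeR adjusted p of 0.122. VTI1B, a vesicle transport gene on the opposite strand, shares 904 of the 2418 exon bases of ARG2, and had 1877 to 3134 reads per library against 385 to 818 for ARG2. Use of strand in counting was not given in the sources used here, so reads in the shared bases may not be separable between the genes and the ARG2 values are uncertain. The log2 fold change of VTI1B was 0.030 (edgeR adjusted p = 0.753) in shTST, 0.13 (edgeR adjusted p = 0.0813) in overTST and −0.11 (edgeR adjusted p = 0.144) between the lines.

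OAT, which exchanges ornithine for glutamate semialdehyde, ranged from 46.5 to 53.0 CPM in WT, 49.9 to 54.4 in shTST and 47.9 to 53.0 in overTST. The ranges overlapped, with shTST replicates 1 and 4 above every WT library and overTST within 46.5 to 53.0 CPM, the WT range. Its log2 fold change was 0.060 in shTST (SE 0.052, interval −0.048 to 0.17, edgeR adjusted p = 0.477) and 0.013 in overTST (SE 0.058, interval −0.11 to 0.13, edgeR adjusted p = 0.881).

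ODC1, the first enzyme of polyamine synthesis, had 381, 378, 389 and 387 CPM in WT and 405, 398, 393 and 400.4 CPM in shTST. In overTST it had 397, 391, 383 and 376 CPM. All 4 shTST libraries lay above all 4 WT libraries, but the log2 fold change of 0.057 (SE 0.040, interval −0.025 to 0.14) did not pass (edgeR adjusted p = 0.356). In overTST it was 0.011 (SE 0.045, interval −0.083 to 0.10, edgeR adjusted p = 0.879).

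GLUL, glutamine synthetase, had 474, 466, 498 and 483 CPM in WT. It had 506, 482, 534 and 502 CPM in shTST and 496, 513, 520.0 and 522 CPM in overTST. In overTST replicate 1 alone fell within the WT range, and in shTST replicate 2 did. The log2 fold change was 0.077 in shTST (SE 0.044, interval −0.015 to 0.17, edgeR adjusted p = 0.256) and 0.095 in overTST (SE 0.047, interval −0.0012 to 0.19, edgeR adjusted p = 0.121). GLUL has 9032 bases of exon, and with the length correction its overTST value was 0.22 (edgeR adjusted p = 0.00122), past the threshold. Of the long members, the correction removed the overTST call of CPS1 and added one for GLUL.

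**Figure D3:**
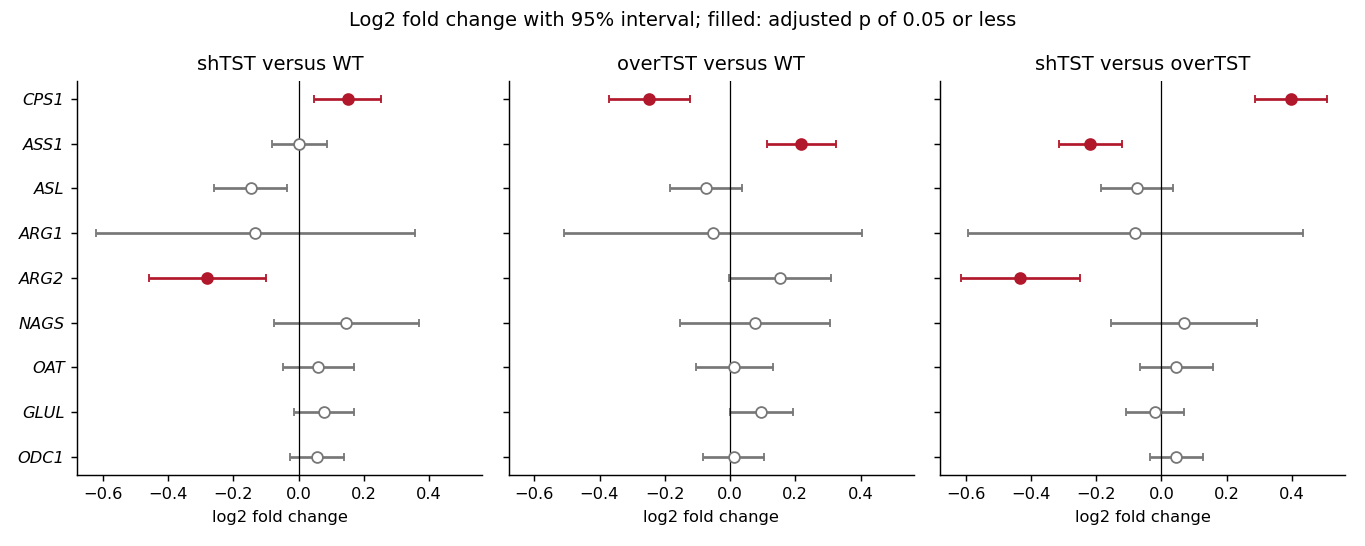
Log2 fold change of the 9 members tested, with 95% intervals, in shTST versus WT, overTST versus WT and shTST versus overTST. Filled points have an edgeR adjusted p of 0.05 or less. CPS1 is at 0.15, −0.25 and 0.40, and the interval of ARG1 is the widest in each comparison.

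Counted by libraries alone, 3 of the 9 members tested did not overlap between shTST and WT (CPS1, ODC1 and ARG2), against 19.1% of all genes tested. Between overTST and WT 2 did not overlap (CPS1 and ASS1), against 30.4% of all genes, and between shTST and overTST 3 did not (CPS1, ASS1 and ARG2), against 29.2%. The median log2 fold change of the 9 members was 0.057 in shTST, 0.013 in overTST and −0.019 between the lines, beside 0.0040, 0.0019 and 0.00084 for all genes tested.

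Ratios of levels per kilobase within a library were also taken, which do not depend on the scaling of the library. The CPS1 to ARG2 ratio was 0.485 to 0.575 in WT, 0.614 to 0.910 in shTST and 0.357 to 0.443 in overTST, with no overlap between groups. The CPS1 to ASS1 ratio was 0.0996 to 0.108 in WT, 0.112 to 0.121 in shTST and 0.0686 to 0.0887 in overTST, again without overlap. The ASS1 to ASL ratio was 1.53 to 1.75 in WT, 1.68 to 1.99 in shTST and 1.92 to 2.14 in overTST, so shTST overlapped both other groups. ARG2 exceeded ARG1 by 3.76 to 8.52 times in WT, 2.84 to 7.92 times in shTST and 4.17 to 8.05 times in overTST, and these ranges overlapped. The ratios combine members already described and add no separate evidence.

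**Figure D4:**
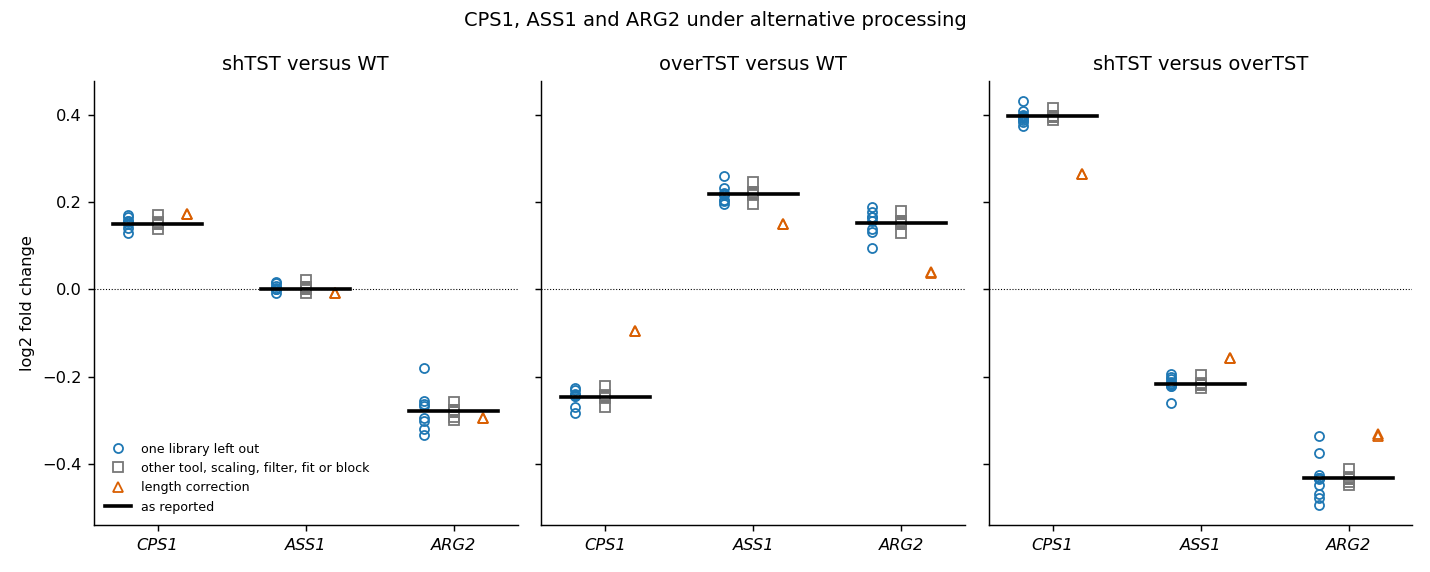
Log2 fold changes of CPS1, ASS1 and ARG2 as reported (lines), with 1 library left out (circles), under other tools, scalings, filters or fits (squares) and after a correction for gene length (triangles). In overTST versus WT the length correction moves CPS1 from −0.25 to −0.094, and in shTST versus WT ARG2 is nearest to 0, at −0.18, without shTST replicate 3.

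The genes around the members were examined in 6 lists of 80 genes in all. They were picked for their role, but with earlier results of these data known. In shTST versus WT 25 of 73 genes tested were called, 2 higher and 23 lower, which is 34.2% against 16.1% of all genes, with a median log2 fold change of −0.079. In overTST versus WT 38 of 72 were called, 13 higher and 25 lower, or 52.8% against 33.9%, with a median of −0.068. Between the lines 37 of 73 were called, 16 higher in shTST and 21 lower, or 50.7% against 33.0%. These counts, and those of the single lists that follow, describe the lists, and no test compared them with other genes. The part of gene length in the single lists was not tested.

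Of 11 tested genes of glutamine transport 6 were lower and 0 higher in shTST, or 54.5% called against 16.1% of all genes. In overTST 7 were lower and 1 higher, or 72.7% against 33.9%. SLC6A14, a broad amino acid importer, ranged from 19.9 to 23.4 CPM in WT, 12.4 to 13.7 in shTST and 5.80 to 8.96 in overTST, and its log2 fold change was −0.71 (SE 0.070, edgeR adjusted p = 1.1e-06) in shTST and −1.48 (SE 0.10, edgeR adjusted p = 1.3e-09) in overTST. SLC1A5, the main glutamine importer of many tumour lines, was lower in both lines, at −0.38 (SE 0.047, edgeR adjusted p = 1.8e-05) in shTST and −0.15 (SE 0.051, edgeR adjusted p = 0.0237) in overTST. SLC38A1, another glutamine importer, was at −0.19 (SE 0.052, edgeR adjusted p = 0.0156) in shTST and −0.30 (SE 0.054, edgeR adjusted p = 0.000137) in overTST. Under the 10 alternatives the overTST value of SLC38A1 ranged from −0.32 to −0.15, with its call kept. The smaller of each pair of calls was not stable: SLC1A5 in overTST was lost without WT replicate 2, WT replicate 4 or overTST replicate 1 (highest edgeR adjusted p = 0.0825) and SLC38A1 in shTST without WT replicate 4 or shTST replicate 3 (highest edgeR adjusted p = 0.0689).

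The list of urea cycle carriers, bicarbonate supply and arginine transport had 10 tested genes. Of these, 1 was higher and 3 lower in shTST, or 40% called against 16.1% of all genes. In overTST 0 were higher and 4 lower, or 40% against 33.9%. In shTST 5 were higher and 0 lower than in overTST, or 50% against 33.0%. The one higher in shTST than in WT was SIRT5, a deacylase and not a carrier. SIRT5 and CA5B, a gene of bicarbonate supply, were among those higher in shTST than in overTST. SLC7A1, which imports arginine, was lower in both lines, at −0.26 (SE 0.048, edgeR adjusted p = 0.000723) in shTST and −0.34 (SE 0.054, edgeR adjusted p = 3.2e-05) in overTST. SLC7A2, a related transporter, was also lower in both, at −0.24 (SE 0.060, edgeR adjusted p = 0.00858) in shTST and −0.40 (SE 0.073, edgeR adjusted p = 0.000173) in overTST. SLC25A13, the mitochondrial carrier that supplies aspartate to ASS1, was lower in overTST at −0.38 (SE 0.053, edgeR adjusted p = 8.8e-06). In shTST SLC25A13 was lower at −0.13 (SE 0.042, edgeR adjusted p = 0.0332), a call that held in 7 of 10 alternatives and 2 of 8 fits without 1 library. SLC25A15, the ornithine carrier, was lower in overTST at −0.37 (SE 0.078, edgeR adjusted p = 0.000726) and had −0.017 (edgeR adjusted p = 0.886) in shTST, and the difference between the lines was 0.35 (SE 0.072, edgeR adjusted p = 0.000535).

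Of 8 tested genes around arginine, nitric oxide, creatine and agmatine, 1 was lower in shTST, or 12.5% called against 16.1% of all genes. In overTST 3 were higher and 1 lower, or 50% against 33.9%. Not all of these genes use arginine itself. The one lower in shTST was NOS3, endothelial nitric oxide synthase, at −0.60 (SE 0.088, edgeR adjusted p = 9.9e-05), with −0.14 (edgeR adjusted p = 0.223) in overTST. DDAH2, of the dimethylarginine dimethylaminohydrolase family, was higher in overTST at 0.50 (SE 0.076, edgeR adjusted p = 2.2e-05), and PRMT1, which methylates arginine in proteins, at 0.23 (SE 0.053, edgeR adjusted p = 0.00168). DDAH1, of the same family as DDAH2, had −0.060 (edgeR adjusted p = 0.452) in overTST. Between the lines 5 of the 8 were lower in shTST and 0 higher, or 62.5% against 33.0% of all genes.

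Of 16 tested genes of polyamine synthesis and turnover, 3 were lower and 0 higher in shTST, or 18.75% called against 16.1% of all genes. In overTST 7 were higher and 2 lower, or 56.25% against 33.9%. Over all genes, shorter ones had higher fold changes in overTST versus WT, with medians of 0.19 up to 2 kb of exon and −0.16 over 8 kb. The part of gene length in this split was not tested. SAT1, which acetylates polyamines for breakdown, was 178 ± 5.36 CPM in WT, 155 ± 5.27 in shTST and 223 ± 12.3 in overTST (SD, n = 4), with log2 fold changes of −0.20 (SE 0.042, edgeR adjusted p = 0.00302) and 0.32 (SE 0.049, edgeR adjusted p = 2.5e-05). SMOX, spermine oxidase, was higher in overTST at 0.38 (SE 0.062, edgeR adjusted p = 6.0e-05). SRM, spermidine synthase, was higher in overTST at 0.26 (SE 0.050, edgeR adjusted p = 0.000269), a call that correcting for length removed (0.11, edgeR adjusted p = 0.0676). It was lower in shTST at −0.14 (SE 0.046, edgeR adjusted p = 0.0399), which held in 2 of 8 fits without 1 library, and differed between the lines by −0.40 (SE 0.049, edgeR adjusted p = 1.7e-06). PAOX, a polyamine oxidase, was lower in shTST at −0.85 (SE 0.27, edgeR adjusted p = 0.0318), but this call held in only 3 of 8 fits without 1 library (highest edgeR adjusted p = 0.127).

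Of 6 tested genes between ornithine and proline, 2 were lower in shTST, or 33.3% called against 16.1% of all genes. In overTST 1 was higher, or 16.7% against 33.9%. ALDH4A1, which oxidises glutamate semialdehyde, was lower in shTST at −0.19 (SE 0.048, edgeR adjusted p = 0.0106), a call lost only without shTST replicate 1 (edgeR adjusted p = 0.0522). PYCR1, which makes proline, was lower in shTST at −0.12 (SE 0.041, edgeR adjusted p = 0.0495), and this call held in 5 of 10 alternatives and 1 of 8 fits without 1 library.

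Of 22 tested enzymes that make or use glutamine and glutamate, 8 were lower and 1 higher in shTST, or 40.9% called against 16.1% of all genes. In overTST 11 of 21 were lower and 1 higher, or 57.1% against 33.9%. ASNS, asparagine synthetase, which uses glutamine, averaged 83.7 ± 5.36 CPM in WT and 51.4 ± 4.27 in shTST (SD, n = 4), a log2 fold change of −0.71 (SE 0.059, edgeR adjusted p = 2.6e-07), and was lower in overTST too, at −0.34 (SE 0.074, edgeR adjusted p = 0.000945). GOT1, the cytosolic aspartate aminotransferase, was lower in shTST at −0.41 (SE 0.045, edgeR adjusted p = 5.0e-06), had −0.0081 (edgeR adjusted p = 0.926) in overTST, and differed between the lines by −0.40 (SE 0.051, edgeR adjusted p = 3.1e-06). CAD, which makes carbamoyl phosphate in the cytosol for pyrimidines, was lower in both lines, at −0.26 (SE 0.047, edgeR adjusted p = 0.000786) in shTST and −0.30 (SE 0.052, edgeR adjusted p = 9.3e-05) in overTST. Under the 10 alternatives the overTST value of CAD ranged from −0.32 to −0.18, with its call kept. PPAT, the first enzyme of purine synthesis, was higher in shTST than in overTST by 0.35 (SE 0.054, edgeR adjusted p = 3.3e-05).

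The 2 pathway genes that rose in shTST, named after their values were seen, were SIRT5 and GLUD1. SIRT5, a mitochondrial deacylase that acts on CPS1, had a log2 fold change of 0.21 (SE 0.065, edgeR adjusted p = 0.0316), and GLUD1, glutamate dehydrogenase, one of 0.14 (SE 0.049, edgeR adjusted p = 0.0469). The call held in 3 of 8 fits without 1 library for SIRT5 and in 2 of 8 for GLUD1, and was lost in the rest.

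On the log2 scale, shTST was lower than overTST in NOS3 at −0.46 (SE 0.091, edgeR adjusted p = 0.000412), DDAH2 at −0.52 (SE 0.072, edgeR adjusted p = 9.2e-06) and SAT1 at −0.52 (SE 0.046, edgeR adjusted p = 1.7e-08). It was also lower in SLC1A5 at −0.23 and PYCR1 at −0.17, the last without a call after the length correction (−0.097, edgeR adjusted p = 0.0768). It was higher in SLC25A13 at 0.24 and in SLC6A14 at 0.77 (SE 0.10, edgeR adjusted p = 5.3e-06).

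**Figure D5:**
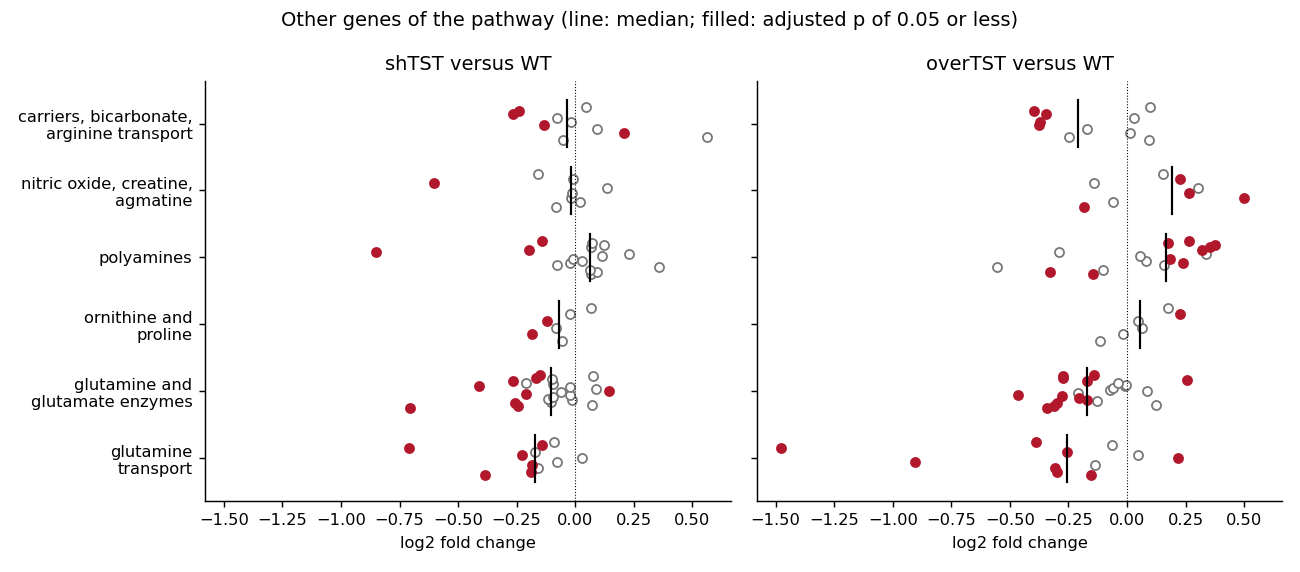
Log2 fold change of each tested gene of the 6 pathway lists in shTST versus WT and overTST versus WT, with filled points at an edgeR adjusted p of 0.05 or less and a line at each list's median. The glutamine transport list has the lowest median in both panels, and SLC6A14 is its lowest gene, at −0.71 and −1.48.

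The genes whose levels ran most like those of CPS1, ARG2 and ASS1 were sought by the root mean square difference of log2 CPM over the 12 libraries, each gene centred on its own mean, among 11565 genes. For CPS1, whose own spread was 0.17, they were CD99L2 (0.038), PEG10 (0.048) and ZCCHC14 (0.050). For ASS1, with a spread of 0.11, they were DNAJC30 (0.032), DHRS11 (0.038) and OTUB1 (0.040). For ARG2, with a spread of 0.22, they were MT2A (0.090), AREG (0.100) and PRKAR1A (0.100), so its pattern was matched less closely. The 12 libraries share their group structure, and these distances describe likeness only.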

How the data were processed

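RNA sequencing libraries of 4 WT, 4 shTST and 4 overTST samples were used, grouped by GEO's labels. The labels state independent replicates, and no pair among the 18 replicate pairs agreed within sampling noise. The authors deposited raw counts of reads for each Ensembl gene, in whole numbers and not normalized, beside its exon coordinates and exonic length. The submitters' processing notes name Trimmomatic 0.36, STAR 2.5.2b, featureCounts, Subread 1.5.2 and GRCh38. Use of strand and the annotation release were not given in the sources used here.

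Counts of 22911380 to 45120508 reads per library were filtered with filterByExpr, scaled by TMM and tested with edgeR 4.0.16's quasi-likelihood test, with Benjamini-Hochberg adjustment over all genes tested at 0.05. Each comparison with WT used its own 8 libraries, and shTST versus overTST a fit of all 12. Each SE was taken from the log2 fold change and its F statistic, as their ratio with F under a square root. CPM used TMM sizes over 12 libraries, except for the marker sums, which used plain library totals. All 115 symbols of members, lists and markers matched, and 56410 of 57500 identifiers had a symbol. The members and lists were chosen with earlier results of these data known. Named were all members, TST, and in each list and comparison the 2 called genes with the smallest p. Genes overlapping member exons, pseudogenes, and the 3 genes most like each of the 3 members with the smallest p were also named. Some genes that this rule names are not reported here.

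The 10 alternatives were DESeq2 1.42.0, limma-voom (limma 3.58.1, robust), RLE and upper-quartile scaling, no filter, keeping genes above 1 CPM in 4 or more libraries, a lowess length correction (span 0.3), the replicate number as a block, both together, and another set of libraries in the fit. Each library was also left out in turn. The procedures were tested on simulated counts in R 4.3.3. The log2 changes planted there were larger than every member change called here, so the simulation does not cover changes of their size. Promoter windows were read from a RefSeq table with Python 3.11.15. Each p-value sets a group difference against the spread between these libraries, and does not cover other lines with TST silenced or overexpressed.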

Additional observations from a re-analysis of the deposited data

Results flagged for a closer look

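Of the 30 sets of 4 libraries formed by the 10 members in 3 groups, 2 had a library far from the others by Dixon's criterion on the gap to the nearest library. Chance alone gives about 1 such set in 20. NAGS in overTST replicate 3 had 6.59 CPM, against 5.56 to 5.72 in the other overTST libraries, and lay just above the highest WT library. OTC in shTST replicate 1 had 0.107 CPM, against 0.199 to 0.203 in the other shTST libraries. For OTC these levels were 3 reads against 6 or 7.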

How the results depend on the processing

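Most counts changed little between settings, and the exceptions follow. With all 12 libraries in the fit, 1 member was called in shTST versus WT, and leaving out single libraries gave 0 to 3. The 0 came without WT replicate 3 and without shTST replicate 4, where 3 members had an unadjusted edgeR p of 0.05 or less, and DESeq2 and limma-voom on all 8 libraries each called 2. Leaving out single libraries gave 15 to 22 pathway genes (lowest without WT replicate 4 and without shTST replicate 1) and 1513 to 2336 genes in all (lowest without shTST replicate 1). Between the lines, the length correction gave 5 members, with or without the block, adding GLUL (−0.13) and ODC1 (0.11). In overTST versus WT it removed the call of CPS1 and added ASL and GLUL. Upper-quartile scaling moved the shTST split from 975 higher and 1371 lower to 1284 and 1151, and the overTST pathway split from 13 and 25 to 16 and 20. The length correction moved the pathway split between the lines from 16 and 21 to 10 and 23. The causes were not tested. With no filter CPS1 lost its call in shTST versus WT (adjusted p = 0.163) and ASL gained one (0.0447), by edgeR.

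Small values of members that were not called changed sign. In shTST versus WT ASS1 was −0.0093 with no filter, −0.0080 with the length correction and −0.0072 with block and correction. In overTST versus WT the same 3 settings gave −0.0088, −0.033 and −0.035 for OAT and −0.012, −0.062 and −0.063 for ODC1, and the last 2 gave −0.0065 and −0.0097 for NAGS. Between the lines GLUL was 0.0012 with no filter, and ARG1 0.050 and 0.051 with the correction without and with the block. Without 1 library, shTST versus WT ranged from −0.0073 to 0.017 for ASS1 and −0.37 to 0.079 for ARG1. OverTST versus WT ranged from −0.022 to 0.042 for OAT, −0.25 to 0.16 for ARG1 and −0.0039 to 0.023 for ODC1. Between the lines the ranges were −0.31 to 0.11 for ARG1, −0.045 to 0.0042 for GLUL and −0.0066 to 0.13 for NAGS.

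No clear pairing by replicate number was seen: same-numbered deviations correlated at −0.074 to 0.13, and not every library correlated best with its own number. In shTST versus WT, shTST replicates 1, 2 and 3 correlated best with their own number and replicate 4 with number 2. Fewer did so in the other comparisons. With the replicate number as a block 3, 2 and 3 members, 26, 42 and 39 pathway genes and 2980, 5166 and 5232 genes in all were called in the 3 comparisons, and ASL gained a call in shTST versus WT. Low counts limit OTC, ARG1 and NAGS.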
